A study of Danio rerio with 6 samples.

Results

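A group of 41 genes, of 32057 listed, gave no count in any wild-type library of zebrafish ovarian follicles and at least 0.5 CPM in each library from ybx1 mutants. CPM is the count of a gene per 1000000 counts of its library. The genes were chosen by these counts in all 6 libraries, so the difference between genotypes in these 41 is the rule itself, is described here and is not tested. Ybx1 is a cold-shock-domain protein that binds RNA and DNA, is abundant in oocytes of fish and frogs, and is known for packing stored mRNA and holding back its translation. A growing oocyte is surrounded by granulosa cells and an outer theca, and it stores most of the transcripts it will use; genes of muscle, nerve, immune or ciliated cells are usually low or silent in it.

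All libraries came from AB-strain follicles at the pre-vitellogenic stage, when follicles have begun to grow and hold no yolk protein. There were 3 libraries of wild type (ybx1+/+) and 3 of the homozygous mutant (ybx1-/-). The labels give neither the lesion, the age of the fish, the number of fish per library nor a sequencing batch. A batch or a background difference between the fish lines that coincides with genotype therefore cannot be told apart from it, and p-values measure only the spread between these libraries.

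Total counts ran from 16600019 to 26547338 in wild type and from 20087447 to 37764782 in the mutant. A gene at 0.5 CPM would give 8.3 counts in the smallest wild-type library and 33.7 in the 3 wild-type libraries together. For genes at 0, the limit was set at 3 counts in a library, or 0.181 CPM in the wild-type library of lowest total; it covers counting error only. Low even counts were more frequent than odd ones: in each library 722 to 913 genes had a count of 2, and 383 to 544 had a count of 1. Whether both reads of a pair were counted separately is not given in the sources used here. If they were, the limit of 3 counts and the counting intervals below, which take counts as independent, are too narrow. The identifier with the symbol YBX1 (ENSDARG00000004757) had 276, 264 and 298 CPM in wild-type replicates 1 to 3 and 252, 241 and 230 CPM in mutant replicates 1 to 3. The mutant libraries were the lower, with a log2 fold change of -0.21 (standard error 0.06, edgeR adjusted p = 0.0244), a difference that missed 0.05 when wild-type replicate 1 (adjusted p = 0.053) or 3 (0.0995), or mutant replicate 2 (0.0706) or 3 (0.084), was left out. Since the labels do not describe the lesion, this RNA level does not check the genotype. The gene in the series title, cdkn1a, which encodes an inhibitor of cyclin-dependent kinases, had 2.04 ± 0.318 CPM in the wild type and 1.58 ± 0.37 CPM in mutants (SD, n = 3 each) and did not pass the test (log2 fold change -0.38, standard error 0.26, edgeR adjusted p = 0.296).

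Most of the 41 genes were read at a low level in the mutant. Their mean mutant level had a median of 1.25 CPM and ran from 0.57 to 38.9 CPM; 12 genes had at least 2 CPM and 11 had under 1 CPM. The members made up 0.128% of all listed genes and 0.258% of the 15908 genes with at least 0.5 CPM in each mutant library. Their summed level was 108, 103 and 114 CPM in mutant replicates 1 to 3, and the first gene alone took 34.0% to 36.9% of it. Among the mutant libraries, all of which the rule required to reach 0.5 CPM, 18 genes were highest in replicate 1, 11 in replicate 2 and 12 in replicate 3. The highest mutant library exceeded the lowest by more than 2 times in 3 genes only, ms4a17a.2, CSRP3 and GRIN1. Among the 40 members with up to 6 CPM, the coefficient of variation between the mutant libraries had a median of 18.7%, beside 16.1% in the other genes of the same range with at least 0.5 CPM in each mutant library. Such levels are not corrected for transcript length and do not rank the genes by molecules.

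**Figure D1:**
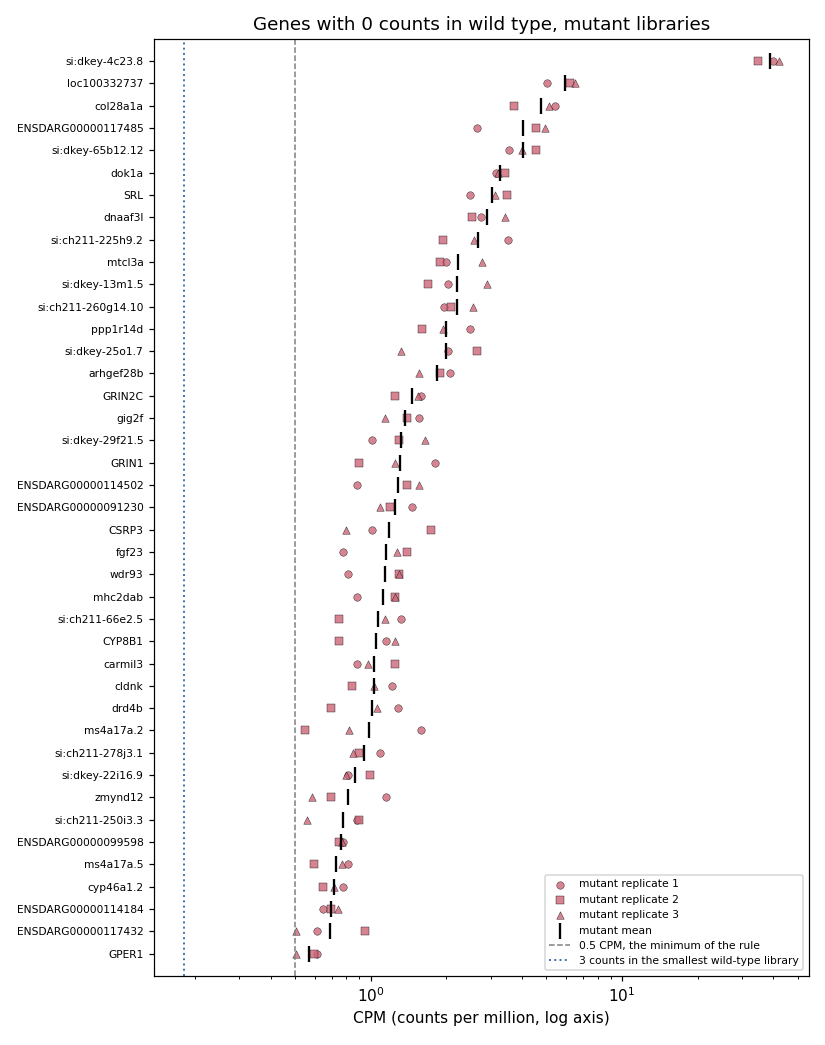
Levels of the 41 genes in the mutant libraries, in CPM on a log axis; each row is a gene, points are the 3 mutant libraries and the black bar is their mean. All wild-type libraries were at 0 and are not drawn, the dashed line is the minimum of 0.5 CPM and the dotted line is 3 counts in the smallest wild-type library; si:dkey-4c23.8 stands apart at 38.9 CPM.

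At the lower edge of the rule, GPER1 had 0.61, 0.597 and 0.503 CPM in mutant replicates 1 to 3 and was kept. The minimum over the mutant libraries was 0.503 CPM in ENSDARG00000117432 as well, 0.548 CPM in ms4a17a.2 and 0.556 CPM in si:ch211-250i3.3. SOSTDC1, with 0.644, 0.498 and 1.09 CPM, and plin6, with 0.949, 0.498 and 0.953 CPM, were also at 0 in wild type and fell just outside through mutant replicate 2, as did si:ch211-267k22.1; znf1151 had a minimum of 0.474 CPM. Other genes fell outside through a single wild-type count. One of them, ENSDARG00000096787, had 0, 1 and 0 counts in wild type and 348, 196 and 468 counts in the mutant, a level above that of every member but the first. With counts pooled over the 3 libraries of each genotype and divided by their pooled total, the ratio was 781. The 95% interval of this pooled ratio, 140 to 30882, covers counting error only. The immunoglobulin-like receptor gene dicp1.3-4 had 0, 0 and 1 counts in wild type and 113, 81 and 165 counts in the mutant. With 1 wild-type count each, si:dkey-40h17.5 had 94 counts in the mutant and ENSDARG00000117461 had 102. Altogether 32 genes with at least 0.5 CPM in each mutant library had 1 to 3 wild-type counts. Leaving out a wild-type library removes a condition from the rule and can only add genes: the number was 66 without wild-type replicate 1, 60 without replicate 2 and 68 without replicate 3.

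The highest member, si:dkey-4c23.8 (ENSDARG00000094960), carries a clone-based name with no described role. It had 39.8, 34.9 and 42.0 CPM in mutant replicates 1 to 3, from 1175, 701 and 1588 counts. Against the limit of 3 counts in the smallest wild-type library, it was at least 215-fold higher. The next, loc100332737 (ENSDARG00000092732), is listed as protein coding by RefSeq and had 5.02, 6.22 and 6.51 CPM, at least 32.7-fold over that limit. The identifier ENSDARG00000117485, which has no symbol, had 2.64, 4.53 and 4.93 CPM, with replicate 1 the lowest. A gene named si:dkey-65b12.12 had 3.56, 4.53 and 4.0 CPM. These 4 genes of unknown role and the collagen gene described next were the only members above 4 CPM on average.

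Extracellular, junction and secreted proteins gave 3 members. The collagen gene col28a1a (ENSDARG00000077084), whose product belongs to the extracellular matrix, had 5.39, 3.73 and 5.14 CPM in mutant replicates 1 to 3, at least 26.3-fold over the limit. Replicate 2 was lower than the others, which were close to each other. The tight-junction gene cldnk, known in zebrafish from myelinating glia, had 1.22, 0.846 and 1.03 CPM. The hormone gene fgf23, which in mammals controls phosphate balance, had 0.779, 1.39 and 1.27 CPM. These levels near 1 CPM rest on 17 to 48 counts per mutant library.

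Receptors and channels gave 4 members, all between 0.57 and 1.46 CPM on average. GRIN1 and GRIN2C encode subunits of the NMDA receptor, a glutamate-gated channel that needs a GRIN1 subunit to form. GRIN2C (ENSDARG00000078149) had 1.59, 1.24 and 1.54 CPM in the mutant, and GRIN1 (ENSDARG00000025728) had 1.80, 0.896 and 1.24 CPM. For both, replicate 2 was the lowest. The dopamine receptor gene drd4b had 1.29, 0.697 and 1.06 CPM and shared that order. GPER1, the gene of a membrane estrogen receptor known in zebrafish for helping to keep oocytes in meiotic arrest, was the lowest member, with a mean of 0.57 ± 0.0584 CPM (SD, n = 3).

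Among signalling adaptors and regulators of the cytoskeleton, 4 members are described. The adaptor gene dok1a, whose mammalian counterpart acts downstream of tyrosine kinases, had 3.15, 3.43 and 3.20 CPM, one of the narrowest spreads of the group. A microtubule-associated protein gene, mtcl3a (ENSDARG00000088571), had 2.0, 1.89 and 2.78 CPM. The protein phosphatase inhibitor gene ppp1r14d had 2.47, 1.59 and 1.93 CPM. Replicate 3 was the highest for mtcl3a and replicate 1 for ppp1r14d, so the libraries did not share an order. The actin regulator gene carmil3, whose products bind capping protein, had 0.881, 1.24 and 0.98 CPM. Each of these 4 genes was at least 5.73-fold over the limit.

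Muscle genes gave 2 members. SRL (ENSDARG00000112959), the gene of a calcium-binding protein of the sarcoplasmic reticulum, had 2.47, 3.48 and 3.12 CPM. CSRP3, the gene of a muscle LIM protein, had 1.02, 1.74 and 0.794 CPM, with replicate 2 at more than 2 times replicate 3. The axonemal dynein assembly factor-like gene dnaaf3l had 2.74, 2.54 and 3.42 CPM, at least 16.0-fold over the limit. The WD-repeat gene wdr93 had 0.813, 1.29 and 1.3 CPM, and zmynd12 had 1.15, 0.697 and 0.583 CPM. Replicate 1 was the lowest for wdr93 and the highest for zmynd12.

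Immune genes and enzymes of sterol metabolism made up the rest of the members with a gene symbol described here. The MHC class II chain gene mhc2dab had 0.881, 1.24 and 1.24 CPM. The gene gig2f, of a fish antiviral family induced by interferon, had 1.56, 1.39 and 1.14 CPM. The membrane-spanning protein genes ms4a17a.2 and ms4a17a.5 had means of 0.987 ± 0.542 and 0.726 ± 0.114 CPM (SD, n = 3 each); ms4a17a.2, from 1.59 CPM in replicate 1 to 0.548 CPM in replicate 2, varied most of all members. CYP8B1 (ENSDARG00000097556), the gene of a sterol hydroxylase of bile acid synthesis, had 1.15, 0.747 and 1.24 CPM. Its fellow cytochrome gene cyp46a1.2, whose mammalian counterpart hydroxylates cholesterol in the brain, had 0.779, 0.647 and 0.715 CPM.

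Of the 41 genes, 23 carried a gene symbol (56.1%, beside 70.8% of all listed genes), 12 a clone or locus name (29.3% beside 19.6%) and 6 no symbol (14.6% beside 9.57%). Within the 15 highest members, the clone-named genes not yet given were si:ch211-225h9.2 with 3.52, 1.94 and 2.57 CPM, si:dkey-13m1.5 with 2.03, 1.69 and 2.91 CPM, si:ch211-260g14.10 with 1.97, 2.09 and 2.54 CPM and si:dkey-25o1.7 with 2.03, 2.64 and 1.32 CPM. The last varied by 1.99 times between libraries, and its lowest library was replicate 3. The other 10 members without a gene symbol had means from 0.686 to 1.32 CPM.

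Relatives of the members were then examined, by the family stem of the symbol. For 16 families that held 18 members, 79 other genes were listed, and 18 of these had no count in any library. A further 16 were at 0 in wild type and had counts in the mutant, though too few for the rule, while 21 had at least 1 CPM on average in wild type. Of the 31 others that passed the count filter, 10 rose and 2 fell at an edgeR adjusted p under 0.05, and their median log2 fold change was 0.35. Over all 17385 genes tested, 18.6% were higher and 15.3% lower (33.9% in either direction), with a median of 0.01. Of all 32057 listed genes, 7204 had no count in any library and 9482 had none in wild type. The filter asks for 0.393 CPM in 3 libraries, and 4 of the 31 passed it through the mutant alone, with no wild-type library at that level, so that only genes high in the mutant could enter this way. These were ms4a17a.9, ms4a17a.16, mhc2d4b and ppp1r14ab, of which the first 3 are among the 10. Of the other 27, 7 were higher (25.9%) and 2 lower (7.41%), beside 17.2% and 15.3% of all tested genes that did not pass through 1 genotype alone. The median log2 fold change of these 27 was 0.18, beside 0.001 in all genes taken the same way. The 2 lower were an SRL identifier (below) and ppp1r14aa, which fell from 71.1 ± 3.24 to 55.7 ± 1.5 CPM (SD, n = 3 each, edgeR adjusted p = 0.00162). Several families thus held well-read genes beside a silent one. The adaptor gene dok1b, for instance, had 49.9, 47.3 and 47.7 CPM in the wild type and 46.3, 48.7 and 51.2 CPM in mutants, and did not pass the test (edgeR adjusted p = 0.878). Among NMDA receptor genes, 9 others were tested, of which 2 were higher and 0 lower. The most read of them, grin2ab, had 66.6 ± 5.18 CPM in the wild type and 67.2 ± 1.94 CPM in mutants (SD, n = 3 each, edgeR adjusted p = 0.865). The 2 higher ones were read at a low level. grin2da rose from 2.29 ± 0.327 to 4.36 ± 0.276 CPM (SD, n = 3 each, edgeR adjusted p = 0.00277). The GRIN2B identifier ENSDARG00000079348 rose from 1.86 ± 0.0974 to 3.12 ± 0.266 CPM (SD, n = 3 each, edgeR adjusted p = 0.0121). The collagen gene col28a2b rose from 122 ± 18.3 to 188 ± 17.6 CPM (SD, n = 3 each; edgeR adjusted p = 0.00101).

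The ms4a17 family had more counts in the mutant also outside its 2 members. The family encodes small membrane proteins with several spanning segments, and relatives in mammals mark B cells and other blood cells. Of 16 genes listed, 4 had no count anywhere, and the 10 with counts that are no members all had a higher mean level in the mutant. No wild-type library held a count for 5 of these 10, so for these 5 any count at all fixed the direction. Among them ms4a17a.7 and ms4a17a.3 were read in only 2 mutant libraries each. Of all 32057 listed genes, 9482 were at 0 in every wild-type library, and 7204 of these were at 0 in every mutant library too. The share of all genes with a higher mean in the mutant was not counted, so 10 of 10 only describes the family. Without the members, the summed level of the family was 1.13, 0.663 and 0.782 CPM in the wild type and 18.0, 15.6 and 15.8 CPM in mutants, with no overlap. Without ms4a17a.9 as well it was 1.13, 0.482 and 0.782 CPM in the wild type and 4.1, 3.14 and 4.55 CPM in mutants. Most of the mutant sum came from ms4a17a.9, which had 0, 3 and 0 counts in wild type and 409, 251 and 424 counts in the mutant. This was a pooled ratio of 279 (95% counting interval 95.2 to 1354, edgeR adjusted p = 8.87e-07). The gene ms4a17a.9 missed the rule by its 3 counts in wild-type replicate 2. It made up 64.6% to 74.5% of the mutant CPM of the whole family, members included. Both other relatives that could be tested passed: ms4a17a.11 rose from 0.555 ± 0.174 to 1.48 ± 0.291 CPM (SD, n = 3 each; edgeR adjusted p = 0.0129) and ms4a17a.16 from 0.0753 ± 0.13 to 0.532 ± 0.101 CPM (SD, n = 3 each; edgeR adjusted p = 0.0404). Of the tested relatives, ms4a17a.9 and ms4a17a.16 had passed the count filter through the mutant alone, so only a high mutant level let them into the test. That limit does not hold for ms4a17a.11. Reads can be divided among similar copies in such a family, so the values of single genes are uncertain, and the sum is given beside them for that reason.

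**Figure D2:**
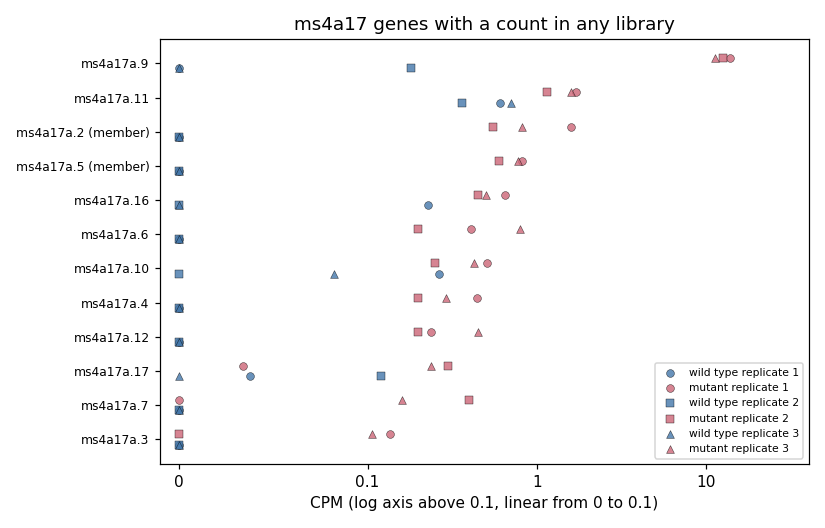
CPM of the 12 ms4a17 genes with a count in any library; points are single libraries, blue for wild type and red for the mutant, on an axis that is linear from 0 to 0.1 and logarithmic above. The wild-type points lie at or near 0 for most genes, and ms4a17a.9 has the highest mutant level, 12.5 CPM on average.

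Among MHC class II genes, 10 of the 15 others had no count in any library. The alpha-chain gene mhc2daa had 0.753, 0.542 and 1.07 CPM in the wild type and 2.88, 3.63 and 3.50 CPM in mutants, with no overlap (log2 fold change 2.04, standard error 0.27, edgeR adjusted p = 0.000285). mhc2d4b had 3 counts in wild type and 47 in the mutant (edgeR adjusted p = 0.0151), a pooled ratio of 12.1 (95% counting interval 3.89 to 60.7). It had passed the count filter through the mutant alone, so only a high mutant level let it into the test. The invariant-chain gene cd74a, whose product escorts class II molecules, went the other way, from 9.24 ± 0.184 to 7.20 ± 0.539 CPM (SD, n = 3 each; log2 fold change -0.36, edgeR adjusted p = 0.0266). The other CYP8B1 identifiers were also at 0 in wild type: ENSDARG00000097559 had 10, 6 and 13 counts in the mutant and ENSDARG00000053068 had 6, 0 and 2. Together the 3 CYP8B1 identifiers had 1.69, 1.05 and 1.64 CPM in the mutant.

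For 5 members another listed identifier carries the same symbol, and in SRL the levels of the pair were complementary. The other SRL identifier, ENSDARG00000104587, had 8.89, 9.16 and 10.3 CPM in the wild type and 5.86, 6.57 and 5.88 CPM in mutants, a fall with no overlap (log2 fold change -0.64, standard error 0.12, edgeR adjusted p = 0.00245). The sum of both identifiers was 8.89, 9.16 and 10.3 CPM in the wild type and 8.34, 10.1 and 9.0 CPM in mutants, so that the genotypes overlapped. The appearance of the SRL member thus came with a decrease of similar size at the other identifier, and whether they share reads was not tested. In mtcl3a the member and the other identifier were read in opposite genotypes. The other identifier, ENSDARG00000097245, had 0.377, 0.361 and 0.577 CPM in wild type and 0 in every mutant library, and it was below the count filter. Here the sums were 0.438 ± 0.12 CPM in the wild type and 2.22 ± 0.485 CPM in mutants (SD, n = 3 each). The mutant sum is the member alone, whose counts the rule used, so this difference is not a separate result. The other GRIN2C identifier had 0.173 ± 0.0661 CPM in the wild type and 0.112 ± 0.102 CPM in mutants (SD, n = 3 each), and the other GRIN1 identifier had no count in any library.

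**Figure D3:**
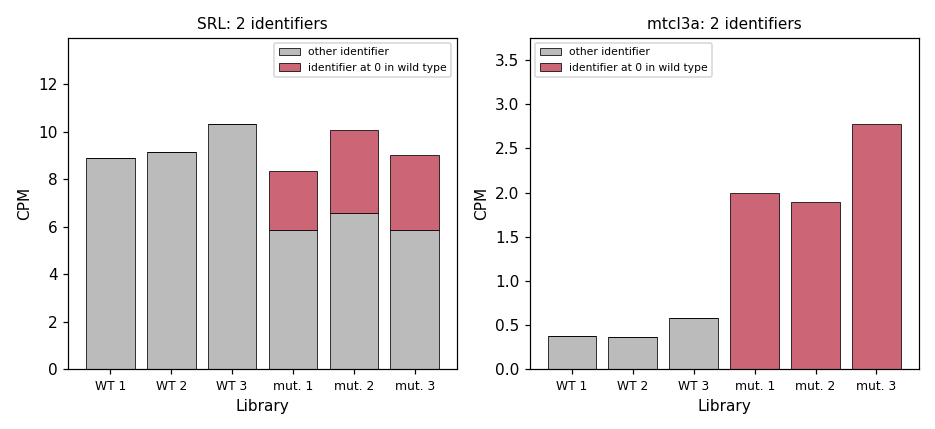
CPM by library for the pairs of identifiers that carry the symbols SRL (left) and mtcl3a (right), stacked, with the identifier at 0 in wild type in red and the other in grey. The stacked height of SRL overlaps between genotypes, at 8.34 to 10.3 CPM. That of mtcl3a is higher in every mutant library, where it is the member chosen by the rule alone.

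Genes next to the members were compared in turn, since the rule did not use their counts. A position in the RefSeq gene order (assembly GRCz12tu, another build than that of the files) was found for 20 members, all protein coding, and 21 members had none. The 20 lay on 14 chromosomes with at most 3 on any of them. Adjacent members were ms4a17a.5 and ms4a17a.2 alone, and GPER1 and ENSDARG00000091579 were separated by 10 positioned genes. Only zmynd12 shared a chromosome with ybx1, and 207 positioned genes lay between them. The nearest tested gene on each side gave 38 distinct neighbours. In mutants 13 of them (34.2%) were higher and 4 (10.5%) lower at an edgeR adjusted p under 0.05, beside 18.6% and 15.3% of all genes tested; the median log2 fold change was -0.01. Of the 13, 4 had passed the count filter through the mutant alone (ms4a17a.9, ENOSF1, si:ch73-56d11.5 and si:ch73-256j6.4). Without them 9 of 34 were higher (26.5%) and 4 lower (11.8%), beside 17.2% and 15.3% of all genes taken the same way. The median log2 fold change of these 34 was -0.04. Directly next to their member in this order were 28 of the 38. The lower calls were fragile: leaving out 1 library gave 1 to 4 of them, with 1 left without wild-type replicate 3, mutant replicate 2 or mutant replicate 3 and 2 without wild-type replicate 1.

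The neighbours with the largest rises were ms4a17a.9 (above) and ENOSF1, beside drd4b, which had 0, 0.12 and 0.165 CPM in the wild type and 2.64, 1.49 and 2.65 CPM in mutants (log2 fold change 4.60, standard error 0.58, edgeR adjusted p = 0.000223). The neighbour si:ch73-256j6.4 of loc100332737 had 3, 0 and 0 counts in wild type and 15, 10 and 18 in the mutant, a ratio of 11.1 (95% counting interval 3.54 to 55.7). The nearest tested gene on the other side of the ms4a17a pair, si:ch73-56d11.5, lay 7 positioned genes away from ms4a17a.2 and had 3, 0 and 0 counts in wild type and 15, 8 and 25 in the mutant, a ratio of 12.3 (95% counting interval 3.98 to 62.0). Genes with so few wild-type counts enter the test only when the mutant is high. The neighbour si:dkey-65b12.6 of si:dkey-65b12.12 rose from 0.622 ± 0.265 to 2.55 ± 0.0667 CPM (SD, n = 3 each; edgeR adjusted p = 0.000888), and btr02, beside cldnk, from 4.22 ± 0.559 to 10.8 ± 0.571 CPM (SD, n = 3 each; edgeR adjusted p = 3.75e-05). On the other side of loc100332737, calr3a, a gene of a calreticulin of the endoplasmic reticulum, rose from 572 ± 35.6 to 688 ± 17.4 CPM (SD, n = 3 each; edgeR adjusted p = 0.0052).

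Some other neighbours were well read in both genotypes. Beside col28a1a, RPA3, a subunit of the single-strand DNA-binding complex, had 66.3 ± 3.15 CPM in the wild type and 64.8 ± 6.57 CPM in mutants (SD, n = 3 each; edgeR adjusted p = 0.817), and SDHAF3 fell by 0.30 on the log2 scale (standard error 0.09, edgeR adjusted p = 0.0285). Beside dok1a, PAIP2B had a log2 fold change of -0.09 (edgeR adjusted p = 0.31) and si:ch211-89o9.6 one of 0.01 (edgeR adjusted p = 0.907). NCOR1, on the other side of si:dkey-65b12.12 from si:dkey-65b12.6, had 171 ± 14.1 and 192 ± 8.01 CPM (SD, n = 3 each; edgeR adjusted p = 0.079). The nearest tested genes on both sides of col28a1a and dok1a were read in all 6 libraries, but taking tested genes alone largely set this. Between col28a1a and SDHAF3, 1 positioned gene was passed over.

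**Figure D4:**
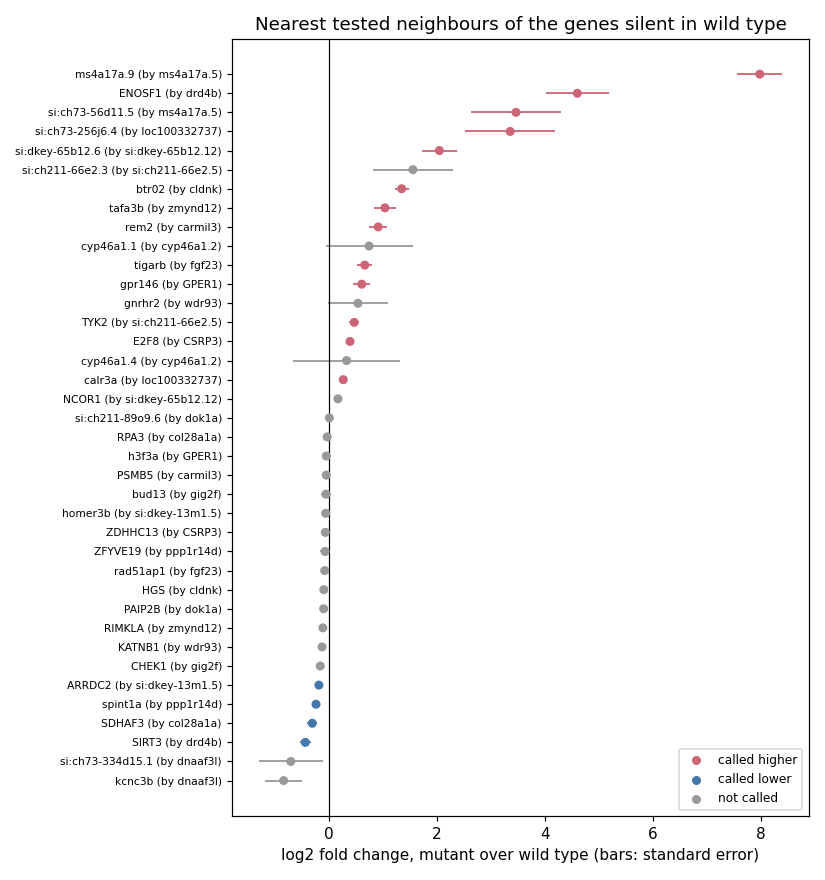
Log2 fold change, mutant over wild type, of the 38 nearest tested neighbours, each named with the member it lies beside; bars are standard errors and colours mark calls at an edgeR adjusted p under 0.05. Of the neighbours 13 were called higher and 4 lower; the fitted fold changes of genes with few wild-type counts depend on the prior count of the fit.

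Markers of the cell types that a follicle preparation can hold were compared beside the members, since many members are known from other tissues. Of 82 markers in 11 lists, 59 were matched and none was a member. In either direction 18 of the 51 tested (35.3%) passed, beside 33.9% over all genes. By direction, 14 were higher (27.5%) and 4 lower (7.84%), beside 18.6% and 15.3% of all genes tested. None of the 51 passed the count filter through 1 genotype alone, and of all genes taken the same way 17.2% were higher and 15.3% lower. The 14 higher calls became 9 without wild-type replicate 2 or 3 and 8 without mutant replicate 3, and the 4 lower calls became 8 without mutant replicate 1. Oocyte markers were high in every library, as the labelled tissue implies, with a summed level of 5682 to 6190 CPM in the wild type and 5807 to 6079 CPM in mutants, and 1 of 9, DAZL, was called, lower in the mutant. The granulosa sum was 66.1 to 74.5 CPM in the wild type and 93.5 to 97.3 CPM in mutants. Of the 10 granulosa markers listed, 6 were matched, and 3 of these rose (gsdf, inha and hsd17b1). The mean of amh was lower in the mutant, from 5.01 ± 0.682 to 3.97 ± 0.206 CPM (SD, n = 3 each), and was not called (edgeR adjusted p = 0.135). Neither FSHR (edgeR adjusted p = 0.774) nor lhcgr, with a higher mean in the mutant (edgeR adjusted p = 0.0557), was called. The sum of theca and steroidogenic stroma was 166 to 184 CPM in the wild type and 208 to 216 CPM in mutants. Most of it was CYP17A1, from 144 ± 3.74 to 166 ± 2.08 CPM (SD, n = 3 each; log2 fold change 0.21). Of the 10 markers in this list 6 were matched, without cyp11a1, cyp11a2, nr5a1a and tagln, and 4 of the 6 rose. NR5A2 moved most on the log2 scale, from 1.31 ± 0.396 to 5.58 ± 0.841 CPM (SD, n = 3 each, edgeR adjusted p = 8.74e-05). Which cells held the NR5A2 RNA was not tested. Endothelial markers had 21.1 to 26.3 CPM in the wild type and 37.6 to 47.1 CPM in mutants, and 3 of 4 rose, kdrl from 13.6 ± 2.5 to 27.4 ± 3.13 CPM (SD, n = 3 each; edgeR adjusted p = 0.000175). The sums of these 3 lists did not overlap between genotypes. The share of all genes, or of like sums, that do not overlap was not counted, here or for the lists below. In bulk follicles, more cells of a type and more RNA per cell cannot be told apart, and the part of these cells in the members' counts was not tested.

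Other marker lists were set beside the members known from those tissues. Muscle markers, beside SRL and CSRP3, summed to 1.02 to 3.01 CPM in the wild type and 2.73 to 3.12 CPM in mutants, and ckma, 1 of the 2 tested, rose. Neural markers, beside GRIN1, GRIN2C, drd4b and cldnk, summed to 2.18 to 2.86 CPM in the wild type and 1.46 to 2.29 CPM in mutants, and sncb, 1 of the 2 tested, fell. Most of the wild-type sum was sncb, from 1.86 ± 0.318 to 0.978 ± 0.314 CPM (SD, n = 3 each). By contrast, mbpa and ELAVL4 had higher means in the mutant, and ELAVL3 and GFAP were near 0. Macrophage and neutrophil markers, with 4 of the 8 listed matched, were set beside the immune genes. They summed to 9.83 to 13.4 CPM in the wild type and 7.42 to 8.47 CPM in mutants, and cd74a, 1 of the 3 tested, fell. The genotypes did not overlap in this sum, most of which was cd74a, from 9.24 ± 0.184 to 7.20 ± 0.539 CPM (SD, n = 3 each). The other matched markers, csf1ra, marco and lyz, had lower means in the mutant but overlapped between genotypes. Markers of T and NK cells summed to 2.49 to 4.04 CPM in the wild type and 4.03 to 6.20 CPM in mutants. Of 5 tested, 2 rose (cd4-1 and ZAP70), and cd8a had no count in any library. The means of RAG1, from 1.42 ± 0.0298 to 0.685 ± 0.334 CPM (SD, n = 3 each; edgeR adjusted p = 0.0756), and lck were lower in the mutant. That of il2rb was higher, and none of RAG1, lck and il2rb was called. Liver markers, beside CYP8B1, varied widely within each genotype, from 3.75 to 40.2 CPM in wild type and from 2.44 to 22.0 CPM in the mutant, with none of 7 called. The list named for testis and male germ cells was set beside dnaaf3l. It summed to 168 to 176 CPM in the wild type and 148 to 152 CPM in mutants, with no overlap. All libraries came from ovarian follicles, so this sum does not measure testis cells, and odf3b of the list was not matched. Of the 5 matched markers 1 was called higher (tex36) and 1 lower (PIWIL2). Most of the sum was PIWIL2, from 154 ± 3.67 to 129 ± 1.0 CPM (SD, n = 3 each). The other matched markers of this list went the other way: tex36, SYCP3, DMRT1 and spata22 had higher means in the mutant. Of these, SYCP3, DMRT1 and spata22 overlapped between genotypes. Red blood cell markers ranged from 5.50 to 14.3 CPM in wild type and from 6.92 to 7.90 CPM in the mutant, with neither of the 2 tested called. The part of these tissues in the members' counts was not tested.

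**Figure D5:**
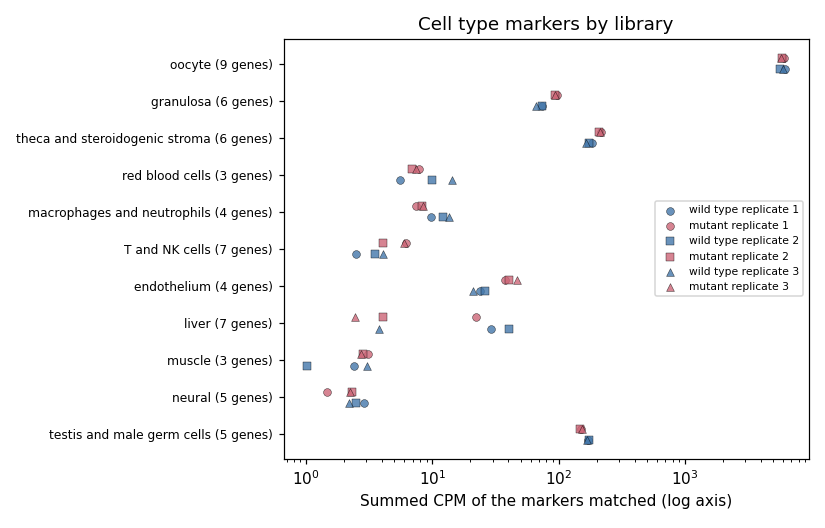
Summed CPM of the matched markers of each cell type, on a log axis, by library, with wild type in blue and the mutant in red. The genotypes separate for the sums of granulosa, theca and endothelial markers, which are higher in the mutant. The macrophage and neutrophil sum, mostly cd74a, and the sum of the list named for testis, mostly PIWIL2, also separate and are lower. The other matched markers of the list named for testis had higher means in the mutant. Oocyte markers overlap, at 5682 to 6190 CPM. The share of like sums that separate was not counted.

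The mirrored rule, with 0 counts in all mutant libraries and at least 0.5 CPM in each wild-type library, found 8 genes, or 0.025% of those listed. The wild-type libraries held fewer counts together than the mutant libraries. After a random thinning of every library to the smallest total, 45 genes met the rule of the members and 8 the mirrored rule. The cause of the difference between these numbers was not tested. The mirrored genes had means of 1.02 to 2.44 CPM in wild type, with a median of 1.39 CPM. Highest was arl3l2, a gene related to the ciliary GTPase gene arl3, with 84, 25 and 64 counts in wild type. The secreted synaptic protein-like gene cbln17 had 51, 22 and 44 counts, and RIBC1, the gene of a protein of ciliary microtubules, had 32, 27 and 39 counts. The others with a symbol were NYAP2, CA6 and SLC43A3. Leaving out a mutant library gave 14, 13 and 16 such genes without replicates 1, 2 and 3.

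A further property came from the authors' normalized table, in which counts are divided by factors that are common to a library for many genes and particular to a gene for others. Among the members, 29 had the common factor in all 3 mutant libraries and 12 had factors of their own (29.3%), with a tolerance of 0.1%. Of the other genes with at least 0.5 CPM in each mutant library 52.1% had factors of their own, and 42.4% of those with up to 6 CPM. CSRP3 had 1.21, 1.21 and 0.679 times the common factor in mutant replicates 1 to 3, cldnk had 0.831, 1.24 and 0.968 times, and col28a1a had 1.06, 1.19 and 0.79 times. After this division the deposited values of col28a1a no longer place replicate 3 below replicate 1. The factors of wild-type libraries cannot be read for these genes, because a count of 0 stays 0. The source of gene-specific factors is not given in the sources used here.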

How the data were processed

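RNA was extracted with TRIzol and made into directional libraries, per the labels' protocols. The submitters' processing notes name bcl2fastq, FastQC 0.11.5, HISAT2, StringTie, DESeq2 and the GRCz11 build, with no roles. The authors deposited whole-number counts per Ensembl gene, used for every test and level, and a second table of normalized values (a signal: counts divided by factors), used only to read those factors. Symbols were matched for 28988 of 32057 identifiers.

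CPM used column sums. Counts were tested with edgeR 4.0.16 in R 4.3.3 (quasi-likelihood test, TMM scaling, filterByExpr with a minimum count of 10 and a total of 15, Benjamini-Hochberg adjustment over 17385 genes, threshold 0.05), and the script was tested on simulated data. The standard error given for a log2 fold change is its absolute value divided by the square root of the edgeR F statistic. It was calculated back from the test and is not an error estimated by the fit. DESeq2 1.42.0 was an alternative. Ratios with few counts compare counts pooled over the 3 libraries of each genotype, divided by their pooled total. They carry exact 95% conditional binomial intervals, for the counting error of independent counts only. The members, the gene lists and the marker lists were chosen with earlier results of these data known. Named were the 15 highest members, those with a gene symbol, 4 genes on each edge of the rule, the called neighbours with the 6 largest changes and the neighbours of those of the 5 highest members that have a position; 1 member that this covers is not reported here, members outside it are given by their range, and other relatives, neighbours and markers were chosen after their values were seen. Neighbours were the nearest tested genes in the RefSeq order, matched by symbol; relatives share a stem of the symbol. Alternatives were other scalings, filters and thresholds, DESeq2, a replicate block and leaving out each library. A comparison with closest paralogs by protein match and a search of promoters for CCAAT and TATAAA were not run, as sequences were not used here.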

Additional observations from a re-analysis of the deposited data

How the results depend on the processing

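At an adjusted p under 0.01, calls over all genes were 2028 higher and 1493 lower, neighbours 11 higher and 0 lower, markers 6 higher and 2 lower, and same-family genes 5 higher. Taking the nearest 2 tested genes on each side gave 24 higher and 10 lower neighbours, and matching positions by exact symbols alone, chosen after seeing the data, gave 2 lower ones. Lower marker calls were 2 with DESeq2 and 7 with no count filter. Leaving out 1 library gave 1 to 4 lower neighbours, 8 to 13 higher and 3 to 8 lower markers, 44 to 68 members, 9 to 16 mirrored genes and a ybx1 log2 fold change of -0.26 to -0.16. The rule found 19 members at 1 CPM, 78 at 0.25 CPM and 73 with at most 3 wild-type counts, and the mirrored rule 5 and 15 at those CPM minimums; TMM-scaled CPM gave 44 members and thinning 45, of which 40 were shared. The cause of these changes was not tested beyond what a stricter or looser rule itself sets. Same-numbered libraries had correlations of deviations of 0.1003, 0.0302 and 0.1427, not all over 0.1, so the numbers were not taken to pair them, and wild-type replicate 2 correlated slightly better with mutant replicate 1. With the replicate block, 3272 genes were higher and 2838 lower, neighbours 13 and 4, markers 13 and 5, same-family genes 11 and 2; ybx1 had -0.21 (edgeR adjusted p = 0.0249) and cdkn1a -0.38 (edgeR adjusted p = 0.3). Depth limits silence to below 0.181 CPM in the smallest wild-type library. The paralog and promoter alternatives were not run.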
